A study of Mus musculus with 13 samples.

Results

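Apoe and 6 genes that move cholesterol into, within and out of cells (Abca1, Abcg1, Scarb1, Npc1, Npc2 and Nr1h2) were followed in haematopoietic stem cells (HSCs) sorted from mouse bone marrow. They were looked up by Ensembl identifier and GENCODE M21 symbol. All 7 were among the 13201 genes of the deposited expression table. Apoe was selected on its measured level, which differed between the genotypes after 5-FU, so its values with 5-FU libraries are given as a description, with no test. The other 6 genes were also chosen with earlier results of these data known. The 4 groups were untreated wild type (WT; libraries D1, D2 and D3), untreated MEK1-deficient (KO; D4, D5 and D6), WT from mice given 5-FU (A2, A3, A4 and D4) and KO from mice given 5-FU (A5, A6 and A8). 5-FU (5-fluorouracil) is a cytotoxic drug that kills dividing blood cells and drives the surviving HSCs into the cell cycle, and MEK1, encoded by Map2k1, is a kinase that activates ERK. The sources used here do not give the age of the mice, the time after 5-FU, its dose or the driver of the deletion, and the HSC gate is given only as a cell type name.

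Cells export cholesterol through the transporters ABCA1 and ABCG1, which load it onto lipoprotein particles, and apolipoprotein E (APOE) is a protein of those particles that also binds receptors of the LDL receptor family. The liver X receptors, one of which is encoded by Nr1h2, sense oxidised sterols and switch on Abca1, Abcg1 and, in macrophages, Apoe. Cholesterol that enters in lipoproteins is released in the lysosome and leaves it through NPC2 and NPC1. In mice, loss of Apoe or of both transporters is known to expand haematopoietic stem and progenitor cells.

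Each library was made by Smart-seq2 from polyadenylated RNA of 100 cells. The read totals were 11416753 to 25380570 in 12 libraries and 45384866 in untreated WT D1. In the units used below, normalized counts (reads divided by the size factor of the library), 3 reads correspond to 0.979 to 4.35, a floor for counting error only. Nothing in the labels says that replicates came from separate mice, so p-values reflect variation among the libraries at hand, part of which may be technical. Untreated libraries are dated 2015 and 5-FU libraries 2016, apart from 5-FU WT D4, which is dated 2015, so the date and the treatment cannot be told apart except through that library. 5-FU WT A3 and D4 correlated at r = 0.988 across genes, against 0.912 to 0.977 for the other pairs within a group, and the text gives the value with these 2 averaged where that changes a call of a named gene. The submitters' design note lists the 5-FU WT samples as 4 and the untreated WT samples as 3 with 1 technical repeat; the untreated WT libraries here are 3, of which D1 names both flowcells. If A3 and D4 were 1 sample, n would be 3 in WT after 5-FU. Map2k1 itself ranged from 905 to 1766 normalized counts in untreated WT, from 545 to 750 in untreated KO, from 584 to 1634 in WT after 5-FU and from 304 to 460 in KO after 5-FU. The KO libraries were thus below the WT libraries in both conditions and still held Map2k1 reads. The log2 difference of Map2k1 was -0.69 in untreated cells (limma adjusted p = 0.460) and -0.96 after 5-FU (adjusted p = 0.0339). Because the libraries are bulk, fewer cells of a type and less RNA per cell cannot be told apart in any value below.

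Apoe (ENSMUSG00000002985) lies on chromosome 7 at 19696109 to 19699188 of GRCm38, on the minus strand. In untreated WT it had 12392, 15087 and 19743 normalized counts in D1, D2 and D3. In untreated KO it had 15223, 13003 and 15873 in D4, D5 and D6. After 5-FU the WT libraries A2, A3, A4 and D4 had 49903, 60703, 50449 and 55681. After 5-FU the KO libraries A5, A6 and A8 had 7461, 5734 and 7878. All 4 WT libraries after 5-FU thus stood above every other library, all 3 KO libraries after 5-FU stood below every other library, and the untreated genotypes overlapped. The group means were 15741 ± 3719 in untreated WT, 14700 ± 1504 in untreated KO, 54184 ± 5067 in WT after 5-FU and 7024 ± 1137 in KO after 5-FU (SD, n = 3, 3, 4 and 3). With A3 and D4 averaged to 1 value the mean of WT after 5-FU was 52848 ± 4636 (SD, n = 3).

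**Figure D1:**
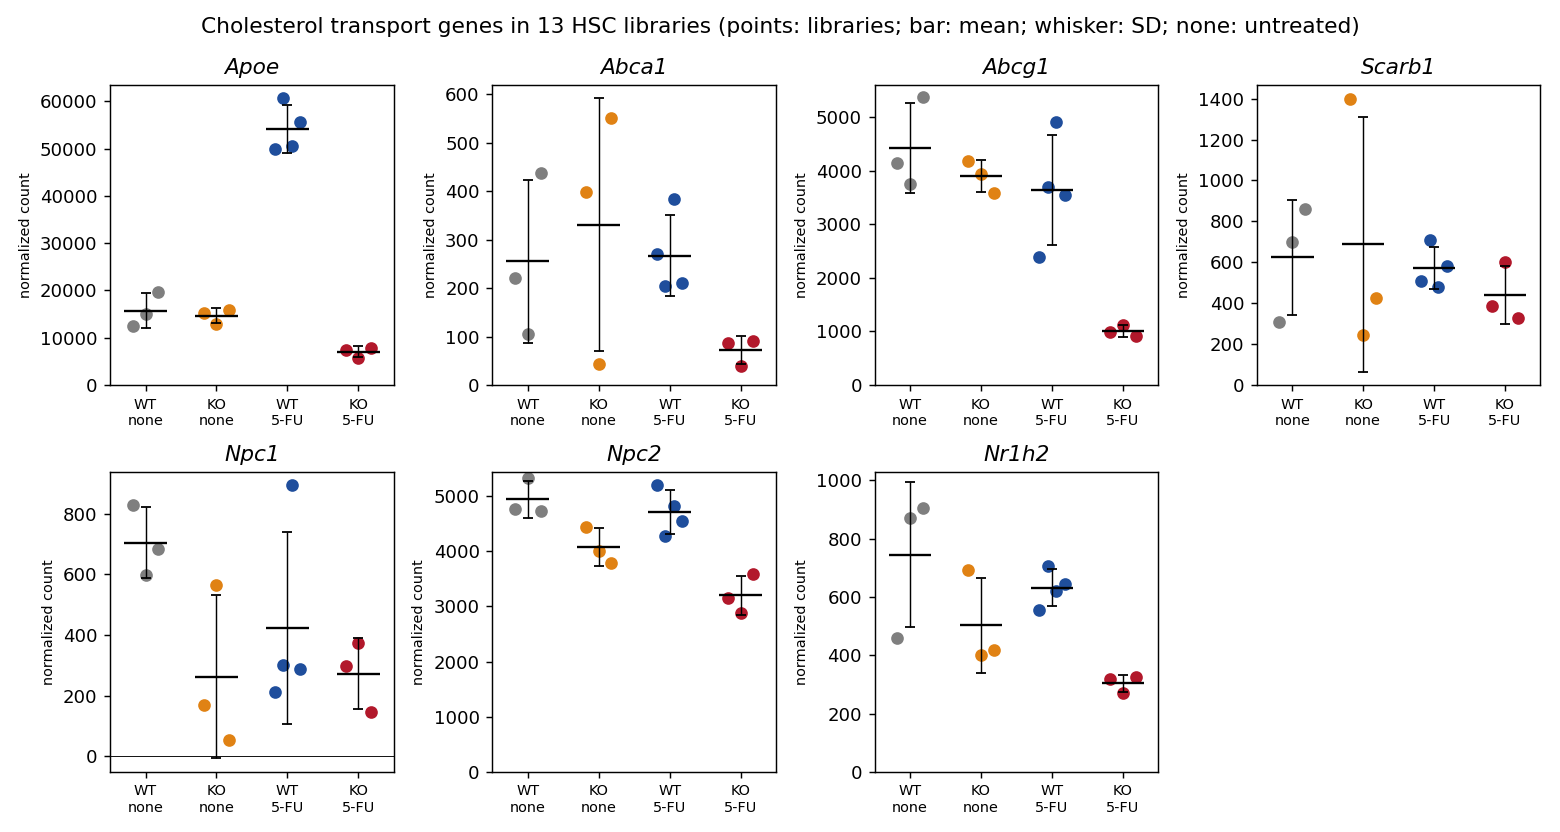
Normalized counts (vertical axis, starting at or just under 0, one scale per gene) of the 7 genes in the 4 groups; each point is a library, the bar is the mean and the whisker the SD. Apoe separates the 2 groups after 5-FU in opposite directions from the untreated level, from 14700 to 15741 on average, while Abcg1 is low only in KO after 5-FU, at 1008.

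The untreated comparison is the one in which Apoe was tested. Its log2 difference between KO and WT was -0.08 (SE 0.16, 95% interval -0.42 to 0.27, limma adjusted p = 0.923). The interval holds differences of either sign, and the sign turned when KO D5 (0.01) or WT D3 (0.10) was left out. As a description, Apoe in WT was 3.44-fold higher after 5-FU than untreated (log2 1.78, SE 0.15), and in KO it was 2.09-fold lower (log2 -1.03, SE 0.16). KO after 5-FU was 7.71-fold below WT after 5-FU (log2 -2.89, SE 0.15). Leaving out any 1 library gave -2.97 to -2.75 for this difference, 1.62 to 1.95 for the WT response and -1.12 to -0.90 for the KO response. With A3 and D4 averaged the difference after 5-FU was -2.85 and the WT response 1.74. Each group enters several of these comparisons, so the values are not independent of each other. Per kilobase of the principal transcript, Apoe was a highly expressed gene throughout. It ranked number 140 of 12718 genes by mean normalized count per kilobase in untreated WT and number 159 in untreated KO. It ranked number 52 in WT after 5-FU and number 409 in KO after 5-FU.

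The sequences below show the 250 bases before the annotated start of 3 of these genes, since Apoe and Abca1 are known targets of the liver X receptors and Nr1h2 encodes one of them. They come from RefSeq (GRCm38.p6), whose promoter table held 4 of the 7 genes (Apoe, Abca1, Npc2 and Nr1h2; no entry was used for Abcg1, Scarb1 and Npc1). Each is written 5′ to 3′ along the gene's own strand, which is the minus strand for all 3. Capitals mark matches, on either strand, to 4 motifs: the GC box GGGCGG, the E-box CACGTG, the ETS motif CCGGAAGT and the DR4 repeat known to bind liver X receptors (AGGTCA, 4 free bases, AGGTCA) with up to 3 mismatches in its 12 fixed letters. The Apoe window is chr7:19699189-19699438, that of Abca1 is chr4:53159896-53160145 and that of Nr1h2 is chr7:44553966-44554215.
Apoe: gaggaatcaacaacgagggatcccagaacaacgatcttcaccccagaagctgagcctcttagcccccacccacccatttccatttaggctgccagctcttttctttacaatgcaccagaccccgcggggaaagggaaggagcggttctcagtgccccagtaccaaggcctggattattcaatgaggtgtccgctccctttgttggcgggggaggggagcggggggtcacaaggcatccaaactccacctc
Abca1: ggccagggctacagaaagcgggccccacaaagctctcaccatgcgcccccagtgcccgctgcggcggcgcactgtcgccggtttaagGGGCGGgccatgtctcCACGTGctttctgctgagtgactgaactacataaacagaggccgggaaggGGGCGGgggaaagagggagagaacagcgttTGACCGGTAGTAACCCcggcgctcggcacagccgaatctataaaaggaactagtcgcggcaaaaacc
Nr1h2: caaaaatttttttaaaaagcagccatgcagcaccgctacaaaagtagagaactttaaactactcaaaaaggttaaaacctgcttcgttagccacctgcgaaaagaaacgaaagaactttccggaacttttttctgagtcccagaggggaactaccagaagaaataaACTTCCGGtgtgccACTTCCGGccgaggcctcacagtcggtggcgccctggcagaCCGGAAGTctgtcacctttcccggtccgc
The Apoe window holds no match to any of the 4. The Abca1 window holds 2 GC boxes, 1 E-box and, from 67 to 52 bases before the start, 1 match to the liver X receptor repeat on the opposite strand with 3 mismatches. The Nr1h2 window holds 3 ETS matches, and the Npc2 window holds 3 GC boxes. Among 32851 windows of the same length, 32.7% held the GC box, 6.02% the E-box, 2.88% the ETS motif and 18.5% the receptor repeat. The GC content of the windows was 57.2% for Apoe, 61.6% for Abca1, 62% for Npc2 and 48.4% for Nr1h2, against a median of 52.4% over all windows. A match of letters is a description, not a binding site. The windows leave out all sequence beyond these 250 bases, so the lack of a match in Apoe says nothing of sites elsewhere.

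Of the 2 exporters, Abcg1 followed Apoe in the KO after 5-FU but not in the WT. Abcg1 (ENSMUSG00000024030; chromosome 17, 31057675 to 31117988, plus strand) encodes a transporter that passes cholesterol to lipoprotein particles. It had 4133, 3754 and 5372 normalized counts in untreated WT and 4168, 3939 and 3576 in untreated KO. With 5-FU the WT libraries had 2386, 3693, 4901 and 3551 and the KO libraries 985, 1125 and 914. The 3 KO libraries after 5-FU were the lowest of all 13, and the other 3 groups overlapped. Abcg1 was 3.60-fold lower in KO than in WT after 5-FU (log2 -1.51, SE 0.19, limma adjusted p = 8.50e-05). In KO it fell 3.86-fold with 5-FU (log2 -1.63, SE 0.20, adjusted p = 0.000267), while in WT the response of -0.28 did not pass (SE 0.19, adjusted p = 0.407). The difference between the 2 responses passed as well (interaction -1.35, SE 0.27, adjusted p = 0.0151). In untreated cells the log2 difference was -0.16 (95% interval -0.58 to 0.27, adjusted p = 0.851). The call between genotypes after 5-FU held in all 22 alternatives (limma adjusted p from 2.47e-05 to 0.00201). Some of these, such as an untreated library left out, can change only the spread and the adjustment, not this log2 difference. The call within KO was lost only with acquisition year as a covariate (adjusted p = 0.106).

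Abca1 (ENSMUSG00000015243; chromosome 4, 53030787 to 53159895, minus strand) encodes the transporter that hands cholesterol and phospholipid to lipid-poor apolipoproteins. Its level was low and varied widely: 221, 105 and 438 normalized counts in untreated WT and 399, 43.3 and 551 in untreated KO. After 5-FU it had 270, 204, 384 and 210 in WT and 86.0, 38.9 and 91.1 in KO. After 5-FU every KO library was below every WT library, but the untreated groups spanned both. The log2 difference after 5-FU was -0.73 (SE 0.31, 95% interval -1.39 to -0.06), a 3.71-fold lower mean in KO, and it missed the threshold with all 13 libraries in the fit (limma adjusted p = 0.160). With only the 2 groups compared in the fit it passed (adjusted p = 0.0297). The KO response of -0.74 missed the threshold too (adjusted p = 0.229), and passed when untreated KO D5, the library at 43.3, was left out (adjusted p = 0.0271). The WT response was 0.08 (adjusted p = 0.908) and the untreated difference 0.10 (adjusted p = 0.965), and both turned sign under several alternatives.

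Nr1h2 (ENSMUSG00000060601; chromosome 7, 44549616 to 44553951, minus strand) encodes liver X receptor beta, the widely expressed of the 2 receptors. It had 458, 873 and 904 normalized counts in untreated WT and 692, 400 and 419 in untreated KO. Among the 5-FU libraries, those of WT had 555, 707, 622 and 644 and those of KO 317, 270 and 324. The KO libraries after 5-FU were again the 3 lowest of the 13, with the other groups overlapping above them. The mean after 5-FU was 2.08-fold lower in KO (log2 -0.63, SE 0.21, limma adjusted p = 0.0622), which missed the threshold. It passed without untreated WT D1 (adjusted p = 0.0331), on the log2 scale with a pseudocount of 1 (0.0459) or 5 (0.0478), with TMM scaling (0.0469) and with only the groups compared (0.0274). The untreated difference was -0.36 (adjusted p = 0.625), the WT response -0.13 (adjusted p = 0.757) and the KO response -0.40 (adjusted p = 0.339).

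Scarb1 (ENSMUSG00000037936; chromosome 5, 125277087 to 125341094, minus strand) encodes SR-BI, a receptor that takes up cholesterol esters from high-density lipoprotein. It had 310, 701 and 860 normalized counts in untreated WT, 1400, 243 and 423 in untreated KO, 510, 711, 481 and 583 in WT after 5-FU and 388, 603 and 329 in KO after 5-FU. All 4 groups overlapped, and the highest and the lowest value of the 13 were both in untreated KO. None of the 5 contrasts passed (limma adjusted p from 0.691 to 0.993). After 5-FU the interval of the log2 difference between genotypes ran from -0.91 to 0.43.

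Npc2 and Npc1 hand cholesterol from the lysosomal lumen to the cytosolic side in turn, NPC2 as a soluble carrier and NPC1 as a membrane protein. Npc2 (ENSMUSG00000021242; chromosome 12, 84754562 to 84773152, minus strand) was among the steadier of the 7 genes: 4767, 5320 and 4734 normalized counts in untreated WT and 4447, 3997 and 3788 in untreated KO. With 5-FU the WT values were 5207, 4282, 4814 and 4550, and the KO values 3158, 2872 and 3580. The KO libraries lay below the WT libraries in both conditions, without overlap. After 5-FU Npc2 was 1.47-fold lower in KO (log2 -0.51, SE 0.13, limma adjusted p = 0.0162), a call that was lost without KO A5 (adjusted p = 0.0616) or KO A6 (adjusted p = 0.0987). In untreated cells the difference of -0.26 did not pass (SE 0.14, adjusted p = 0.562), nor did the KO response of -0.32 (adjusted p = 0.198), although those groups did not overlap either. The interaction was -0.25 (adjusted p = 0.539), so a greater genotype difference after 5-FU than before it was not shown.

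Npc1 (ENSMUSG00000024413; chromosome 18, 12189692 to 12236400, minus strand) had 828.9, 598 and 684 normalized counts in untreated WT and 169, 565 and 52.9 in untreated KO. After 5-FU it had 211, 300, 893 and 286 in WT and 298, 373 and 144 in KO. Npc1 was separated by genotype without 5-FU and overlapped after it. The untreated mean was 2.69-fold lower in KO (log2 -0.998, SE 0.35, limma adjusted p = 0.343), which missed the threshold, and the other 4 contrasts did not pass either (adjusted p from 0.342 to 0.849). Exons of Rmc1 and Gm15956 overlap Npc1 on the other strand, and the sources used here do not give the strand used in counting, so reads of these genes cannot be told apart.

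Over all genes tested, 10.9% were called between KO and WT after 5-FU (1395 of 12846), with 5.36% higher and 5.50% lower in KO. The 6 genes other than Apoe were chosen with earlier results of these data known, so their shares below are a description, not a test of the set. Of these 6 genes, 2 were called lower (Abcg1 and Npc2) and none higher. The log2 differences of all 6 were negative, with a median of -0.57 against -0.02 over all genes. Without overlap, 4 of the 6 were lower in KO (Abca1, Abcg1, Npc2 and Nr1h2), against 13.8% of all genes tested. The same held for 2 of the 6 in untreated cells (Npc1 and Npc2; 5.67% of all genes) and for 3 of the 6 in the KO response (Abcg1, Npc2 and Nr1h2; 14.6% of all genes). In the WT response none of the 6 was without overlap, against 16.7% of all genes in either direction. In untreated cells 0.0311% of genes were called (4 of 12846), and none of the 7 was, by limma on the deposited values or by limma-voom. At an unadjusted p under 0.05, 1 of the 7 passed there (Npc1). The WT response was called for 6.68% of all genes (3.72% higher and 2.96% lower) and for 0 of the 6, and 0 of the 6 passed at an unadjusted p under 0.05. The KO response was called for 5.92% of all genes (2.78% higher and 3.14% lower) and for 1 of the 6, Abcg1. The interaction was called for 2.84% of all genes and for 1 of the 6, again Abcg1. The plot of log2 differences sets these contrasts side by side.

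**Figure D2:**
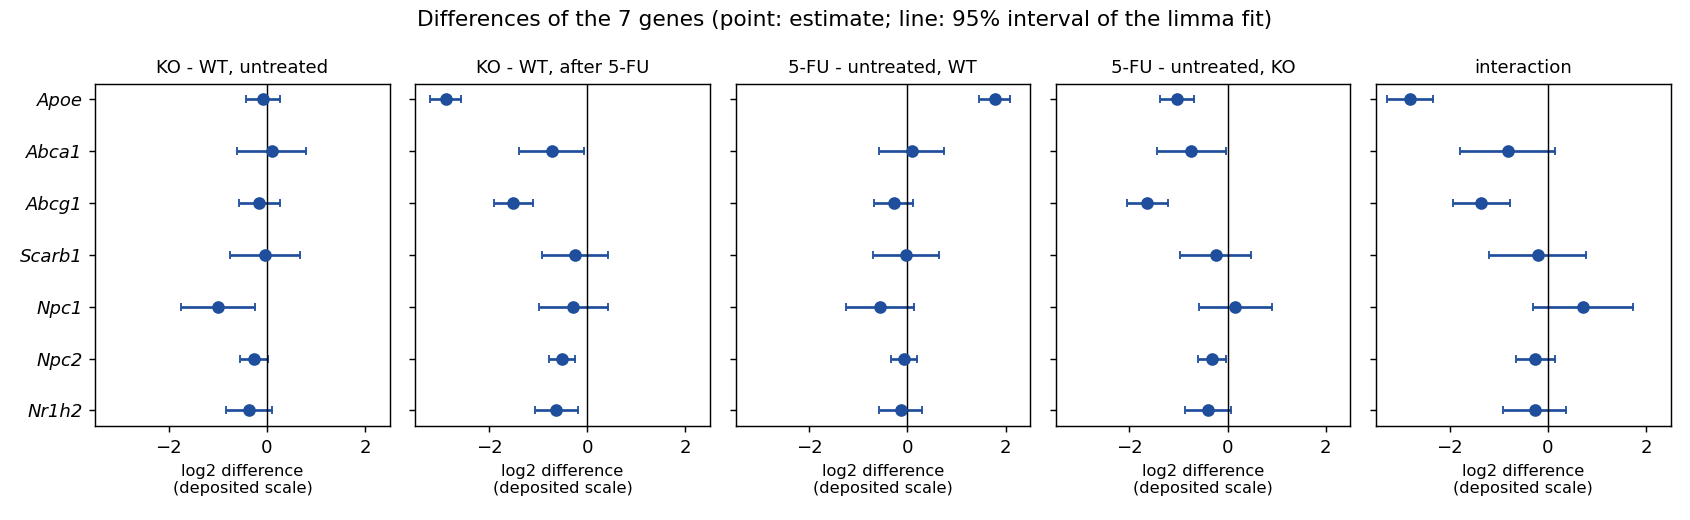
Log2 differences on the scale of the deposited values (horizontal axis) of the 7 genes in the 5 contrasts (1 panel each), with 95% intervals from the limma fit. Between genotypes after 5-FU the intervals of Abcg1 (-1.90 to -1.11), Npc2 (-0.78 to -0.24), Nr1h2 (-1.06 to -0.19) and Abca1 (-1.39 to -0.06) lie below 0. The intervals are not adjusted for the number of genes, and of these genes only Abcg1 and Npc2 passed after adjustment. Apoe is shown as a description where 5-FU libraries enter.

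The wider pathway was described with a list of 85 further genes of cholesterol transport and its control, of which 68 had a row in the table and 64 were tested. This list too was chosen with earlier results of these data known. After 5-FU, 10 of the 64 were called between genotypes (15.6%, against 10.9% of all genes), 2 higher and 8 lower in KO. The median log2 difference of the list was -0.14, with 22 positive and 42 negative values. In untreated cells 0 of the 64 were called by limma or by limma-voom (4 at an unadjusted p under 0.05). The WT response was called for 4 of them (6.25%, against 6.68% of all genes), the KO response for 4 (6.25%, against 5.92%) and the interaction for 2 (3.12%, against 2.84%), all near the share over all genes.

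Of the 11 tested genes of lipoprotein receptors and uptake, 2 were called after 5-FU (18.2%, against 10.9% of all genes). Both were lower in KO (Vldlr and Lrpap1). Of other lists, Mylip was called lower and Apobr higher. Apobr, the receptor of apolipoprotein B48 on macrophages, had 107, 218 and 204 normalized counts in untreated WT and 0, 34.3 and 45.5 in untreated KO. It was at 0 in 3 WT libraries after 5-FU and at 1.45 in A3, while the KO libraries after 5-FU had 155, 192 and 185. Apobr was called in both responses, lower with 5-FU in WT (log2 -1.18, limma adjusted p = 0.000786) and higher in KO (0.85, adjusted p = 0.0145; 0.0627 without KO A6, 0.0803 without untreated KO D4, 0.0941 with a pseudocount of 1, 0.0899 with TMM scaling and 0.0827 with limma-voom), with an interaction of 2.03 (adjusted p = 0.00120). It was also called higher in KO than in WT after 5-FU (1.20, adjusted p = 0.000454). Exons of Cln3 and Il27 overlap Apobr on the other strand. Vldlr, a receptor of APOE-containing lipoproteins, had a mean 5.94-fold lower in KO after 5-FU (log2 -1.05, adjusted p = 0.0176), with a call that was lost without KO A5 (0.0567), A6 (0.0515) or A8 (0.0847) and with limma-voom (0.104). Lrpap1, the chaperone of LDL receptor family proteins, was 2.37-fold lower (log2 -0.95, adjusted p = 0.0108). Mylip, the ubiquitin ligase that is induced by liver X receptors and degrades LDL receptors, was 4.31-fold lower (log2 -0.91, adjusted p = 0.0212), a call lost without KO A6 (0.0672) or A8 (0.115), without WT A3 (0.0682) or D4 (0.0691) and with A3 and D4 averaged (0.0665), acquisition year (0.0685) or limma-voom (0.0850).

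Clu encodes clusterin, an apolipoprotein and chaperone. It had 528, 1802 and 1451 normalized counts in untreated WT and 2414, 1638 and 4852 in untreated KO. With 5-FU the WT libraries held 2929, 4575, 3192 and 4317, and those of KO 1655, 962 and 799. KO was below WT after 5-FU without overlap, by 3.30-fold (log2 -1.47, limma adjusted p = 0.00728). The WT response was called (log2 1.42, adjusted p = 0.0134; 0.0590 without untreated WT D1 and 0.136 with acquisition year as a covariate) and the KO response was not (-1.08, adjusted p = 0.0775). The interaction was -2.50 (adjusted p = 0.0110).

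Genes of sterol sensing and intracellular handling completed the calls after 5-FU. Insig1, which holds the SREBP machinery in the endoplasmic reticulum, had 912, 900, 525 and 923 normalized counts in WT and 302, 250 and 230 in KO (log2 -0.97, limma adjusted p = 0.00314). It also fell with 5-FU within KO (log2 -0.91, adjusted p = 0.0128; 0.0573 without KO A6, 0.0505 without A8 and 0.0541 without untreated KO D5). Tmem97, whose product binds NPC1 and lowers its level in human cells, was 2.19-fold higher in KO after 5-FU (log2 0.91, adjusted p = 0.00501), with 711 to 1146 normalized counts in WT and 1774 to 2883 in KO. Tspo, a mitochondrial outer membrane protein that binds cholesterol, was lower in KO (log2 -0.67, adjusted p = 0.0114), a call lost without KO A6 (adjusted p = 0.0723). Exons of Mcat overlap Tspo on the other strand. The other 2 calls, outside the 8 with the smallest p, were Lipa, the lysosomal acid lipase (-0.91, adjusted p = 0.0270), and Rnf139, a sterol-regulated ubiquitin ligase (-0.70, adjusted p = 0.0250), and each was lost in 8 of 22 alternatives. Lipa was lost without KO A5 (0.0830) or A6 (0.140) or WT A2 (0.0574), A3 (0.0741) or D4 (0.0651), and Rnf139 without KO A5 (0.0537), A6 (0.120) or A8 (0.0691) or WT A3 (0.0829) or D4 (0.0549). With A3 and D4 averaged the adjusted p was 0.0682 for Lipa and 0.0638 for Rnf139, and both were lost with acquisition year (0.0649 and 0.0543) and limma-voom (0.0818 and 0.0568). Nceh1, which hydrolyses stored cholesterol esters, fell with 5-FU in both genotypes, by -1.16 in WT (adjusted p = 0.0114) and -1.50 in KO (adjusted p = 0.00366). The Nceh1 call in WT was lost without untreated WT D2 (0.0569), with only the groups compared (0.0641) and with acquisition year (0.322). Plin3, a lipid droplet coat protein, fell in WT (-0.81, adjusted p = 0.0439; lost in 15 of 22 alternatives, among them each WT library left out and, at 0.0721, A3 and D4 averaged), and Srebf2, the transcription factor of cholesterol synthesis and uptake, fell in KO (-0.81, adjusted p = 0.0318; lost in 7 of 22, among them without KO A5, A6 or A8 and without untreated KO D4 or D6). With acquisition year as a covariate, none of the 4 calls of the KO response held (adjusted p from 0.539 to 0.642).

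**Figure D3:**
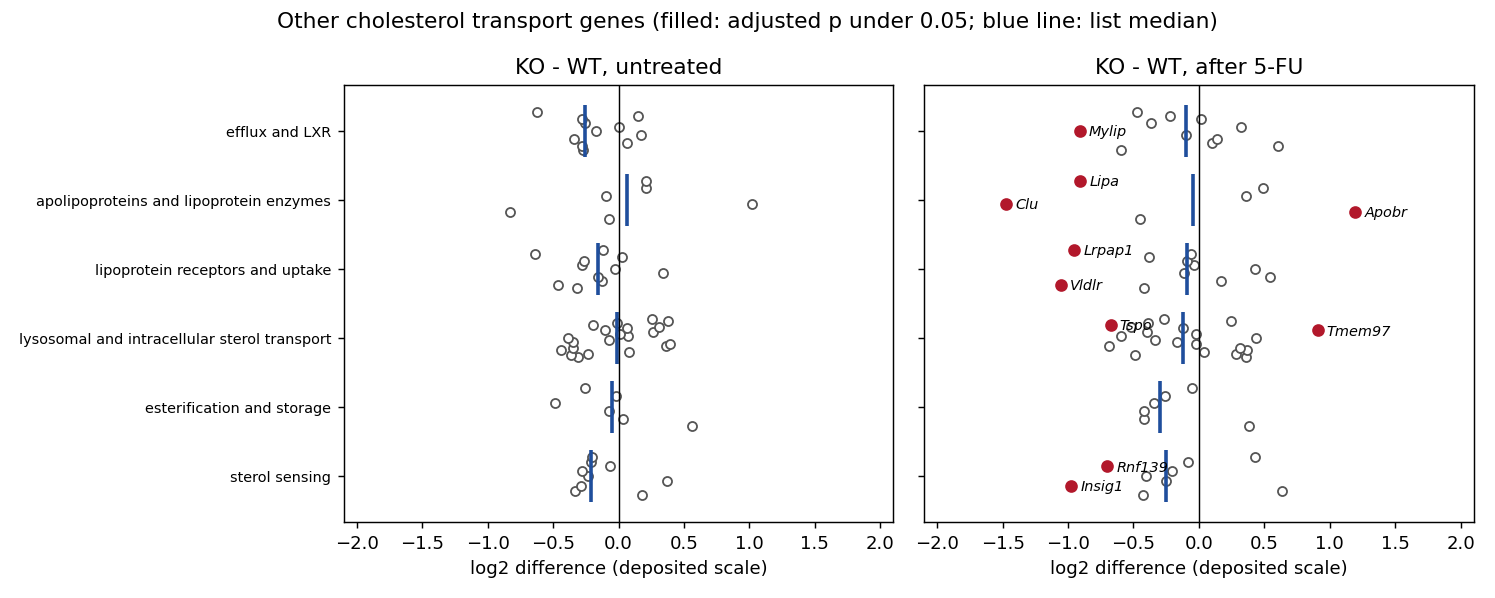
Log2 differences between KO and WT (horizontal axis, scale of the deposited values) of the 64 tested pathway genes beyond the 7, by list (rows), untreated on the left and after 5-FU on the right; filled points passed the test and the blue line is the list median. No point is filled on the left, while 10 are on the right, 8 of them below 0.

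The neighbours on chromosome 7 set beside Apoe were the nearest tested gene on each side. Apoc1, another apolipoprotein gene, was near the floor of detection, with 38.9, 8.10 and 0 normalized counts in untreated WT and 0, 14.7 and 9.52 in untreated KO. After 5-FU it had 84.5, 20.3, 34.2 and 51.1 in WT and 9.41, 4.72 and 0 in KO, a log2 difference of -0.45 that did not pass (limma adjusted p = 0.0932). Tomm40, a channel of the mitochondrial outer membrane, went the other way. Tomm40 had 727, 723, 365 and 726 normalized counts in WT after 5-FU and 1672, 2173 and 2066 in KO after 5-FU, 3.10-fold higher in KO (log2 1.26, adjusted p = 0.00133). Its exons overlap Gm20512 on the other strand.

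The genes whose profile over the 13 libraries was most like that of Apoe were found as those with the smallest root-mean-square distance between centred deposited values, among tested genes with a mean of at least 50 normalized counts. They were Gp1bb (0.369), Timp3 (0.398), Treml1 (0.410), Dhrs3 (0.423), Clca3a1 (0.447) and Fcer1a (0.453), where Apoe's own root-mean-square deviation was 1.102. Gp1bb and Treml1 encode surface proteins of megakaryocytes and platelets. Gp1bb had means of 346, 406, 2172 and 190 normalized counts in untreated WT, untreated KO, WT after 5-FU and KO after 5-FU. Treml1 had 592, 572, 3270 and 244 in the same order, and Clca3a1 had 603, 722, 5577 and 207. Exons of Sept5 and Gm49601 overlap Gp1bb on the same strand, so part of its reads may belong to them. For the other members, the distance of the nearest gene is given beside the member's own deviation. They were Txnip for Abcg1 (0.182, own 0.728), Ifnar1 for Abca1 (0.232, own 0.488) and Gatd1 for Nr1h2 (0.119, own 0.338). The others were Rtn3 for Scarb1 (0.209, own 0.418), Rnf181 for Npc2 (0.113, own 0.238) and Mon2 for Npc1 (0.259, own 0.555).

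**Figure D4:**
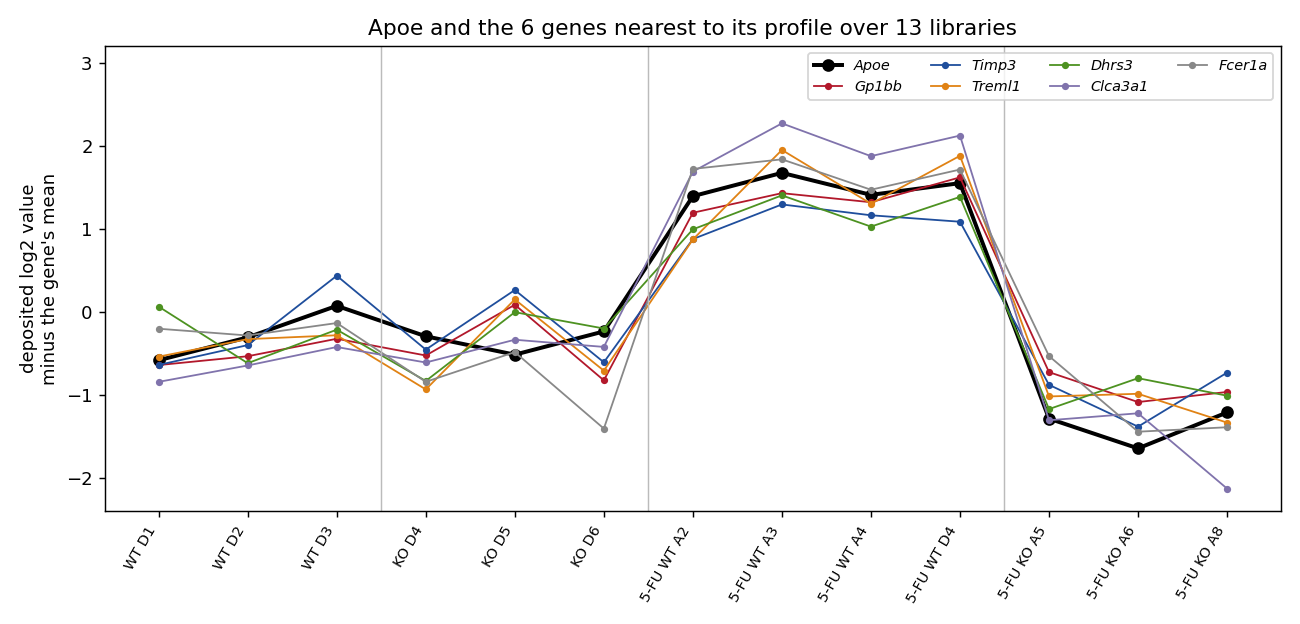
Deposited log2-scale values of Apoe and its 6 nearest genes, each with its own mean over the 13 libraries subtracted (vertical axis), by library (horizontal axis, ordered by group). All 7 lines are highest in the 4 WT libraries after 5-FU, and that of Apoe is lowest in the 3 KO libraries after 5-FU, where it had 5734 to 7878 normalized counts.

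Of the marker lists of cells that such a sort could hold, 2 had, like Apoe, their highest summed levels in all 4 WT libraries after 5-FU. They were those of megakaryocytes and platelets and of neutrophils and mast cells. The sums of the other lists did not, but the erythroid sum was mostly Car2 and says little of the other erythroid genes. All marker lists were chosen with earlier results of these data known. The megakaryocyte and platelet list had 13 of 15 genes in the table (Gp6 and Mpig6b were not analysed here), led by Pf4 and Gp9. Their summed level was 4779 to 7115 normalized counts in untreated WT, 5684 to 9237 in untreated KO, 34763 to 59382 in WT after 5-FU and 6179 to 8785 in KO after 5-FU. The libraries of WT after 5-FU again stood above all others, and 11 of the 13 genes were called lower in KO after 5-FU (5.50% of all genes), while 10 were called higher with 5-FU in WT (3.72% of all genes). Pf4 made up much of the sum in WT after 5-FU. Its means were 1189, 1272, 26736 and 2910 in untreated WT, untreated KO, WT after 5-FU and KO after 5-FU. Within KO the Pf4 mean was 2.29-fold higher with 5-FU, which was not called (limma adjusted p = 0.0973), while Apoe was 2.09-fold lower. In that KO response 0 of the 13 genes were called higher and 0 lower (2.78% and 3.14% of all genes). The part of megakaryocytes and platelets in the Apoe values was not tested. The macrophage list had 16 of 18 genes in the table (Adgre1 and Marco were not analysed here), and most of its sum was Lyz2, the lysozyme gene of myeloid cells. The full sum was 19003 to 21592 in untreated WT, 16156 to 18484 in untreated KO, 16272 to 19415 in WT after 5-FU and 9594 to 10152 in KO after 5-FU, without overlap after 5-FU. Of its 13 tested genes, 2 were called lower in KO after 5-FU and 0 higher (5.50% and 5.36% of all genes). They were Lyz2 (1.89-fold, limma adjusted p = 0.000118) and Spic, a transcription factor of red pulp and marrow macrophages (3.29-fold, adjusted p = 0.00625). Without Lyz2 the sum was 1333 to 3023 in untreated WT, 982 to 1072 in untreated KO, 1124 to 1966 in WT after 5-FU and 1031 to 1728 in KO after 5-FU. Without Lyz2 the ranges overlapped after 5-FU. The C1q genes, which mark resident macrophages, summed to 118 to 707, 0 to 89.9, 57.9 to 562 and 173 to 596 in the same 4 groups.

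**Figure D5:**
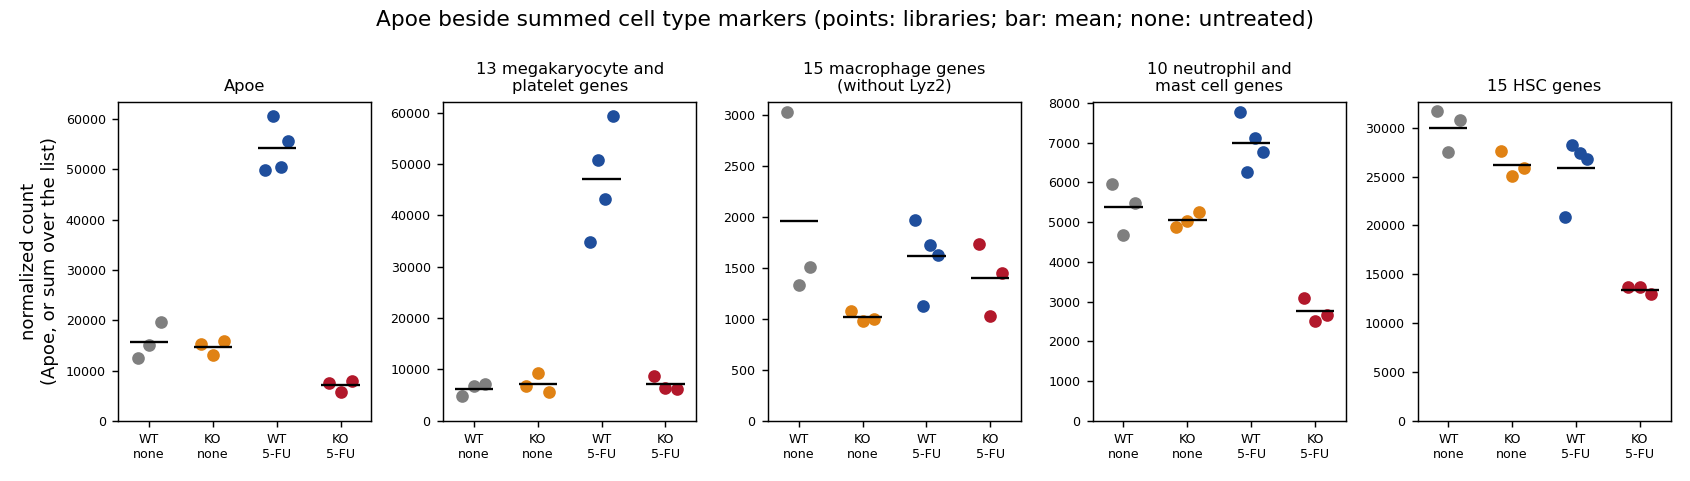
Normalized counts of Apoe and summed normalized counts of 4 marker lists (vertical axis, starting at 0, one scale per panel) in the 4 groups; points are libraries and the bar is the mean. The megakaryocyte and platelet sum reaches 34763 to 59382 in WT after 5-FU and at most 9237 in the other groups.

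The HSC list, led by Kit and Esam, had all 15 genes in the table and summed to 27553 to 31724 in untreated WT, 25028.0 to 27661 in untreated KO, 20892 to 28275 in WT after 5-FU and 12946 to 13697 in KO after 5-FU. After 5-FU, 6 of its 15 genes were called lower in KO and 1 higher (5.50% and 5.36% of all genes). Single HSC genes responded to 5-FU in WT in both directions, which the sum does not show. In that response 3 were called higher and 5 lower (3.72% and 2.96% of all genes). Within KO, 0 were called higher with 5-FU and 5 lower (2.78% and 3.14% of all genes). The erythroid list (12 of 14 genes, mostly Car2) summed to 47427 to 71323 in untreated WT, 57032 to 72585 in untreated KO, 41581 to 45669 in WT and 28542 to 40099 in KO after 5-FU. Car2 alone had means of 54957, 63952, 37044 and 28695 in these groups. Of the 11 tested erythroid genes, 4 were called lower in KO after 5-FU and 0 higher (5.50% and 5.36% of all genes). With 5-FU in WT, 2 were called higher and 1 lower (3.72% and 2.96% of all genes). The neutrophil and mast cell list (10 of 14 genes) summed to 4679 to 5966 in untreated WT, 4878 to 5246 in untreated KO, 6258 to 7761 in WT and 2506 to 3084 in KO after 5-FU. As for Apoe, every WT library after 5-FU was above all others in this sum and every KO library after 5-FU below all others. Much of its rise in WT was Fcer1a, which was among the genes nearest to Apoe. Fcer1a had means of 187, 54.8, 1521 and 34.9 in untreated WT, untreated KO, WT after 5-FU and KO after 5-FU. Prtn3, the highest gene of the list, had 4612, 4400, 4033 and 2271 in the same order. Of the 10 genes, 5 were called lower in KO after 5-FU (5.50% of all genes) and 3 higher with 5-FU in WT (3.72% of all genes). In WT and KO after 5-FU, the lymphoid list (5 of 12 genes) summed to 1262 to 1961 and 585 to 795. The stroma and endothelium list (5 of 12 genes) summed to 684 to 1146 and 407 to 937 there. The part of these cells in the values of the 7 genes was not tested.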

How the data were processed

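RNA-seq libraries of 100 sorted HSCs each were made by Smart-seq2, per the labels' protocols. Trimmomatic, Bowtie 1.1.1, DESeq2 and the mm10 build are named, per the submitters' processing notes. The deposited table holds log2-scale variance-stabilized values that the authors made with DESeq2; this was read from the values, which were inverted to normalized counts and to reads that came out whole (within 0.1) for every gene in all 13 libraries. The sources used here do not give the strand or the gene model of the counting. Of 13201 identifiers, 13069 had a symbol in GENCODE M21 and 132 did not.

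Genes with at least 10 normalized counts in at least 3 libraries (12846) were tested with limma 3.58.1 in R 4.3.3 on the deposited values, with 1 mean per group over all 13 libraries, an intensity trend in the variance (9 residual and 7.67 prior degrees of freedom) and Benjamini-Hochberg adjustment within each contrast at 0.05. Log2 differences are on this scale, which understates changes of low genes; folds are ratios of mean normalized counts. The procedure was also run on simulated independent libraries, with no date effect and no pair as alike as A3 and D4. The outcome is not given here, so it says nothing of those limits. The text names the 7 members, up to 8 called pathway genes per contrast by smallest p, the 6 genes nearest to Apoe, the nearest gene to each other member, the nearest tested neighbours of Apoe and the 2 highest genes of a marker list; other genes were named after their values were seen. The members and lists were chosen with earlier results of these data known, and 1 gene first placed in the HSC marker list is not reported here and is left out of its sums. Alternatives were each library left out, 5-FU WT A3 and D4 averaged, pseudocounts of 1 and 5, TMM scaling, no filter and a minimum of 50, acquisition year as a covariate, only the groups compared, and limma-voom on the recovered reads.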

Additional observations from a re-analysis of the deposited data

Results flagged for a closer look

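In groups of 4 libraries, a gap from 1 library to the nearest other above 0.829 of the range was taken as a library apart. WT after 5-FU was the only group of 4, so 18 genes were examined in it alone, and chance gives about 1 in 20. A library stood apart for 4 of these genes. The groups of 3 libraries were not examined, so whether such gaps are more frequent in WT after 5-FU was not tested. Npc1 was at 893 normalized counts in A4 (ratio 0.869), Insig1 at 525 in A4 (0.941), Tmem97 at 711 in A2 (0.990), and Apobr at 1.45 in A3 (1), which is a single step above the 0 of the other 3 libraries.

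Among the members and the pathway list, the response to 5-FU was called different between the genotypes for 3 tested genes. They were Abcg1 (interaction -1.35, limma adjusted p = 0.0151), Apobr (2.03, adjusted p = 0.00120) and Clu (-2.50, adjusted p = 0.0110). Over all genes the interaction was called for 365 of 12846 (2.84%). For Apoe the interaction was -2.81. Every WT library after 5-FU was above, and every KO library after 5-FU below, all untreated libraries, which are separate samples. The Apoe interaction was not tested, since Apoe was chosen for its difference after 5-FU.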

How the results depend on the processing

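There were 676 tested values of the 7 genes under alternatives (without the 87 of Apoe that were not tested), most of which did not pass at the outset. Of the 676, 640 kept direction and side of the threshold, 7 passed newly, 3 no longer passed and 26 changed sign. None of the sign changes was a called value. Leaving out a library outside the contrast, another filter or a fit of only the groups compared cannot change a log2 difference, so such alternatives could not turn a sign. The genes called in the 5 contrasts (untreated, after 5-FU, WT response, KO response, interaction) ranged over libraries left out from 1 to 25, 694 to 1606, 464 to 990, 356 to 979 and 140 to 476, and those of the pathway list from 0 to 0, 5 to 11, 2 to 5, 1 to 6 and 2 to 3. With A3 and D4 of 5-FU WT averaged the counts were 2 untreated, 913 after 5-FU, 510 for the WT response and 237 for the interaction. With acquisition year as a covariate, a term that rests on D4 against A2 to A4, they were 2, 881, 219, 7 and 199, with 1 pathway gene in the WT response and 0 in the KO response. In untreated cells a pseudocount of 1 gave 9, TMM scaling 8 and a minimum of 50 gave 2. Fits of only the groups compared gave 0 untreated and 415 for the WT response. Limma-voom gave 0 untreated and 430 for the KO response, and 6, 8 and 2 pathway genes after 5-FU and in the WT and KO responses. The cause of these shifts was not tested. Signs changed for Abca1 untreated (-0.029 with a pseudocount of 1, -0.0095 with 5, -0.037 with TMM, -0.275 with limma-voom), for Scarb1 with limma-voom (0.067 untreated, 0.174 in the WT response) and with acquisition year for Abca1 in the WT response (-0.067) and Npc1 in the KO response (-0.121). Over libraries left out, log2 differences that changed sign ranged untreated from -0.231 to 0.096 for Apoe, -0.203 to 0.551 for Abca1 and -0.508 to 0.307 for Scarb1, in the WT response from -0.145 to 0.329 for Abca1 and -0.307 to 0.153 for Scarb1, in the KO response from -0.175 to 0.557 for Npc1 and -0.587 to 0.228 for Scarb1, and in the interaction from -0.552 to 0.263 for Scarb1. No paired analysis was possible because the groups compared share fewer than 2 replicate labels. With 3 or 4 libraries a group, low and variable genes such as Abca1, Scarb1 and Npc1 are the least certain.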
